A study of Homo sapiens with 4 samples.

Results

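The genes described here are 40 cytosolic and mitochondrial chaperones, their cochaperones and the heat shock factors HSF1 and HSF2, out of 34500 genes in the deposited tables. Members were named by symbol and found through the GENCODE transcript-to-gene map, and the estimated counts and TPM values of each member's transcripts were summed in each library. They comprise 8 HSP70 and HSP110 genes, 7 genes of HSP90 and its cochaperones, 7 J-domain proteins, 3 BAG proteins, 3 small heat shock proteins, 8 subunits of the chaperonin CCT (also called TRiC), the HSP60 and HSP10 pair and 2 heat shock factors. The cells were MCF10A, an immortalised, non-tumorigenic human mammary epithelial line, and all of them stably carried a scramble shRNA, a hairpin without an intended target. The TGFB1 group received TGF-β1, a cytokine that signals through SMAD transcription factors, at 5 ng/ml for 1.5 h, and the control group (0 h) received none. Each group has 2 libraries, numbered 1 and 2 in the labels. The medium held epidermal growth factor, cholera toxin, insulin, hydrocortisone and horse serum in every group. The labels speak of biological duplicates but name no separate cultures, so the p-values below measure the spread between these libraries, which may be technical.

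Chaperones bind unfolded or partly folded proteins and use cycles of binding and release, in most families driven by ATP, to let them fold. HSP70 proteins take their clients from J-domain proteins, release them with the help of nucleotide exchange factors such as BAG and HSP110 proteins, and can hand them through STIP1 to HSP90, while CCT encloses actin, tubulin and other clients in a barrel. Many cytosolic chaperone genes are induced together after heat or other proteotoxic stress by HSF1, which binds heat shock elements, arrays of inverted GAA repeats, in their promoters.

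The promoters of the members were read from RefSeq on build GRCh38.p14, and 35 of the 40 members had an entry, the others being HSPA14, FKBP4, CRYAB, CCT6A and HSF1. Within 250 bases before the start, the letters GAANNTTC or TTCNNGAA, each its own reverse complement, stood in 9 of these 35 promoters (25.7%), against 11.7% of all 27305 RefSeq promoters and 8.94% of the 10833 that belong to tested genes. The longer runs GAANNTTCNNGAA or TTCNNGAANNTTC, which are each other's reverse complement and contain the shorter letters, stood in 2 of the 35 (HSPA8 and DNAJB6), against 0.439% of all promoters. Stretches of 7 of the 9 promoters are shown, from the HSP70 genes, J-domain genes and small heat shock genes whose levels are described below, and TCP1 and BAG2 hold the remaining matches. Each is written in the direction of transcription, with the matched letters in capitals. Those of HSPA8, DNAJA1 and HSPB8 are held to 30 bases, all of them, matches included, annotated as untranslated region of some transcripts. So are 27 of the 100 bases of HSPA1A and 1 of the 100 of HSPB1. Of the 4 matches of HSPA8, 2 are shown. A match of letters is a description of the sequence and not a measured binding site.
HSPA1A, chr6:31815391-31815490, plus strand: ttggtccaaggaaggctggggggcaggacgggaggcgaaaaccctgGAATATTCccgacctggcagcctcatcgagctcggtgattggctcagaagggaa
HSPA1B, chr6:31827587-31827686, plus strand: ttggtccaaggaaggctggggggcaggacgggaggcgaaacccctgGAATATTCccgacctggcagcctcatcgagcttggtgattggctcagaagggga
HSPA8, chr11:123062168-123062197, minus strand: ggccccTTCTGGAAGGTTCtaagatagggt
DNAJA1, chr9:33025064-33025093, plus strand: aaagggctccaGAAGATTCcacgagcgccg
DNAJB6, chr7:157336832-157336931, plus strand: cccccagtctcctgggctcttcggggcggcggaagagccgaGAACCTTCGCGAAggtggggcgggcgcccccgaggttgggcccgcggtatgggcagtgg
HSPB1, chr7:76302445-76302544, plus strand: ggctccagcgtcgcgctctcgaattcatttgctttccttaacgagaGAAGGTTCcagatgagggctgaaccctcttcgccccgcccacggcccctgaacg
HSPB8, chr12:119178832-119178861, plus strand: tcatcacctccGAATATTCctgtgacagga

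The libraries held 35737659 to 40792300 estimated counts. SMAD7, an inhibitory SMAD and early TGF-β target, was at 129 and 100.1 CPM (counts scaled to library size) in TGFB1 replicates 1 and 2, against 8.58 and 8.27 CPM in control replicates 1 and 2. All 14 markers of basal mammary epithelium reached a mean of at least 1 TPM, as did 7 of 9 luminal markers, 2 of 7 fibroblast markers (summed level 19.8 to 28.5 TPM) and 1 of 9 blood and endothelial markers, of which 2 were at 0. The replicates numbered 2 stood apart from those numbered 1 in both groups. PHF8, a histone demethylase named in the labels' protocol, was at 3.998 and 3.88 CPM in TGFB1 and control replicates 2, against 20.0 and 20.2 CPM in TGFB1 and control replicates 1.

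HSPA1A and HSPA1B encode the same stress-inducible HSP70 protein and lie side by side on chromosome 6, HSPA1A at chr6:31815464-31817946 and HSPA1B at chr6:31827735-31830255. Their coding sequences differ at 4 of 1923 bases, and 93.9% of all stretches of the read length, 50 bases, are identical between them. Their promoter stretches shown above differ at 3 of 100 bases, none within the matched letters. On the reference chromosome their rows were nearly empty. HSPA1A held 0 counts in TGFB1 replicates 1 and 2, against 0 and 24 counts in control replicates 1 and 2. HSPA1B held 16 and 0 counts in TGFB1 replicates 1 and 2, against 16 and 0 counts in control replicates 1 and 2. The deposited tables list 15 further transcripts of the pair on alternate assembly sequences of the same region, and these held the reads. With both genes and all their copies summed, the pair had 22932 and 8127 counts in TGFB1 replicates 1 and 2, against 24319 and 10089 counts in control replicates 1 and 2. The pair is therefore given below as 1 sum, fitted with the copies added, since the estimation divides reads between the copies. A total of 39 of the 40 members passed the filter on low counts, all but HSPA1A, and HSPB8 and the reference row of HSPA1B passed it through 1 replicate number only. DNAJA3 also had alternate copies, which held 1279 and 1109 counts in TGFB1 replicates 1 and 2, against 1174 and 1015 counts in control replicates 1 and 2.

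**Figure D1:**
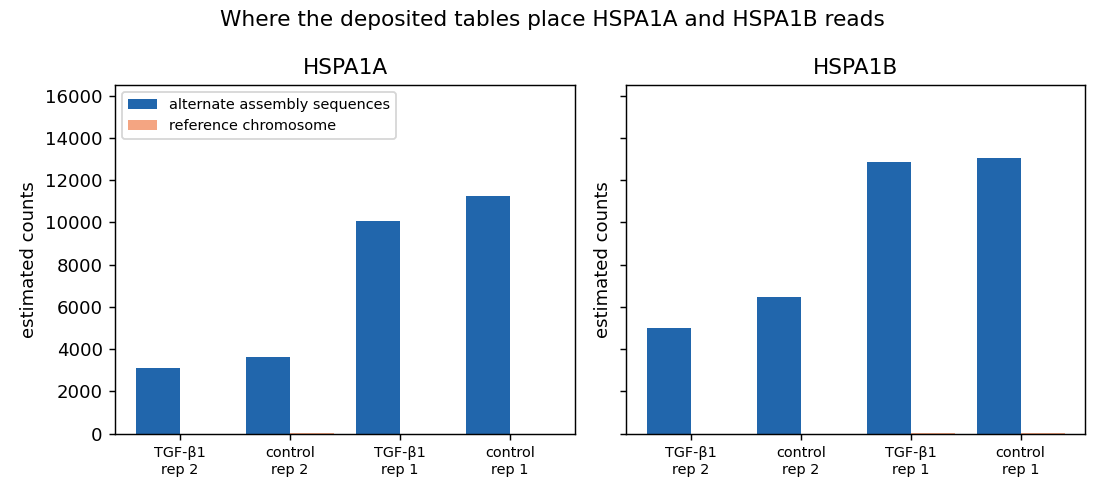
Estimated counts (vertical axis) of HSPA1A and HSPA1B in each library, for transcripts on alternate assembly sequences and on the reference chromosome, 1 library per bar. The reference bars, at most 24 counts, are invisible at this scale, and the alternate copies of both genes are lower in the libraries numbered 2 than in those numbered 1.

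Most members were abundant, and their levels per length spanned a wide range. HSPA8, the constitutive HSP70 (HSC70), had the highest level, 2991 and 2229.6 TPM in TGFB1 replicates 1 and 2, against 3215 and 2255 TPM in control replicates 1 and 2. HSP90AB1, the constitutive HSP90, averaged 907 ± 174 TPM in TGFB1 libraries and 892 ± 101 TPM in control libraries (SD, n = 2 each, as for the other means). HSPD1, the mitochondrial HSP60 chaperonin, averaged 833 ± 19.1 TPM in TGFB1 libraries and 828 ± 59.9 TPM in control libraries, so the ranges of these 2 genes overlapped and their order could not be told from 4 libraries. The CCT subunits CCT3 and CCT5 followed, CCT3 with 694 ± 39.2 TPM in TGFB1 libraries and 687 ± 4.52 TPM in control libraries. CCT5 averaged 506 ± 127 TPM in TGFB1 libraries and 495 ± 114 TPM in control libraries. The other members of the first 10 in mean TPM were the small heat shock protein HSPB1, mitochondrial HSP70 (HSPA9), HSP10 (HSPE1), TCP1 and HSPA4, between 319.8 and 465.7 TPM over the 4 libraries.

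The inducible pair HSPA1A and HSPA1B was at 342 and 127 TPM in TGFB1 replicates 1 and 2, against 354 and 155 TPM in control replicates 1 and 2. Inducible HSP90AA1 was at 374 and 209 TPM in TGFB1 replicates 1 and 2, against 356 and 229 TPM in control replicates 1 and 2. Both inducible forms were thus well below their constitutive relatives HSPA8 and HSP90AB1 in every library. HSF1 averaged 71.6 ± 4.52 TPM in TGFB1 libraries and 75.2 ± 2.36 TPM in control libraries, while HSF2, a related factor that can form trimers with HSF1, averaged 12.0 ± 0.0149 TPM in TGFB1 libraries and 11.1 ± 0.486 TPM in control libraries. The lowest members, apart from the reference rows of the HSPA1 pair, were the small heat shock proteins CRYAB, with 32 to 55 counts per library, and HSPB8, with 10 to 121.

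After 1.5 h of TGF-β1, none of the members passed the test without covariates against control. By edgeR's quasi-likelihood test, with Benjamini-Hochberg adjustment over all 14774 tested genes and a threshold of 0.05, 0 of 39 members were called and 0 genes in all (0%). At an unadjusted p under 0.05 it had 1 member, HSPB1, and 255 genes, 1.73% of those tested. DESeq2's Wald test called 0 members and 90 of 23178 genes (0.388%). Of 5 direct TGF-β targets, SMAD7 among them (13.6-fold higher, adjusted p = 0.0888 in edgeR's test), edgeR also called 0 and had 3 at an unadjusted p under 0.05, while DESeq2 called 3 higher, so a member without a call by edgeR is not shown to be unresponsive. The median log2 fold change was 0.03 over the members and -0.01 over all tested genes, and 29 members had a positive and 10 a negative value. Both TGFB1 libraries were above both control libraries for 4 members (HSPA14, BAG3, HSPB1 and CCT3), where 7.87% of all genes were, and below both for 2 (DNAJB4 and BAG2), where 8.34% of all genes were.

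HSPB1 (HSP27), an ATP-independent holdase that binds unfolding proteins, had the smallest p of the members in this comparison. It was at 290.1 and 295 CPM in TGFB1 replicates 1 and 2, against 223 and 218 CPM in control replicates 1 and 2. The TGFB1 libraries stood above the control libraries without overlap, by 0.38 on the log2 scale within replicates 1 and by 0.44 within replicates 2. The fitted log2 fold change was 0.41 ± 0.11 (SE), with an adjusted p of 1.00 in edgeR's quasi-likelihood test without covariates. A fit with the replicate number as a block changed the calls of HSPB1 and BAG3 and is given in the closing section on processing. BAG3, an exchange factor that links HSP70 to selective autophagy, was at 112 and 89.1 CPM in TGFB1 replicates 1 and 2, against 83.4 and 72.8 CPM in control replicates 1 and 2. Its groups did not overlap either, and its log2 fold change was 0.36 ± 0.16 (SE), 0.42 within replicates 1 and 0.29 within replicates 2. BAG3 binds small heat shock proteins, among them HSPB8 and HSPB1, and bridges them to HSP70.

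Among the J-domain proteins, which stimulate the ATPase of HSP70, DNAJB4 was at 20.7 and 20.3 CPM in TGFB1 replicates 1 and 2, against 24.5 and 22.6 CPM in control replicates 1 and 2, a log2 fold change of -0.20 ± 0.13 (SE). DNAJB2 was at 20.3 and 18.3 CPM in TGFB1 replicates 1 and 2, against 19.7 and 12.3 CPM in control replicates 1 and 2. Its difference thus lay within replicates 2, 0.56 on the log2 scale there and 0.04 within replicates 1. DNAJB6 had log2 differences of 0.18 within replicates 1 and 0.30 within replicates 2, a positive sign in both. DNAJB1, a main cytosolic partner of inducible HSP70, had -0.05 within replicates 1 and 0.24 within replicates 2, so its direction was not the same in both. HSPA14, a ribosome-associated HSP70 relative, was at 32.0 and 33.0 CPM in TGFB1 replicates 1 and 2, against 29.4 and 30.7 CPM in control replicates 1 and 2. BAG2, an inhibitor of the ubiquitin ligase CHIP, was at 30.2 and 32.5 CPM in TGFB1 replicates 1 and 2, against 33.2 and 33.99 CPM in control replicates 1 and 2. All 8 CCT subunits had small positive log2 fold changes, between 0.02 and 0.06, and 7046 of the 14774 tested genes also had positive values. For the inducible pair HSPA1A and HSPA1B the log2 fold change was -0.11 ± 0.60 (SE), and its groups overlapped.

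**Figure D2:**
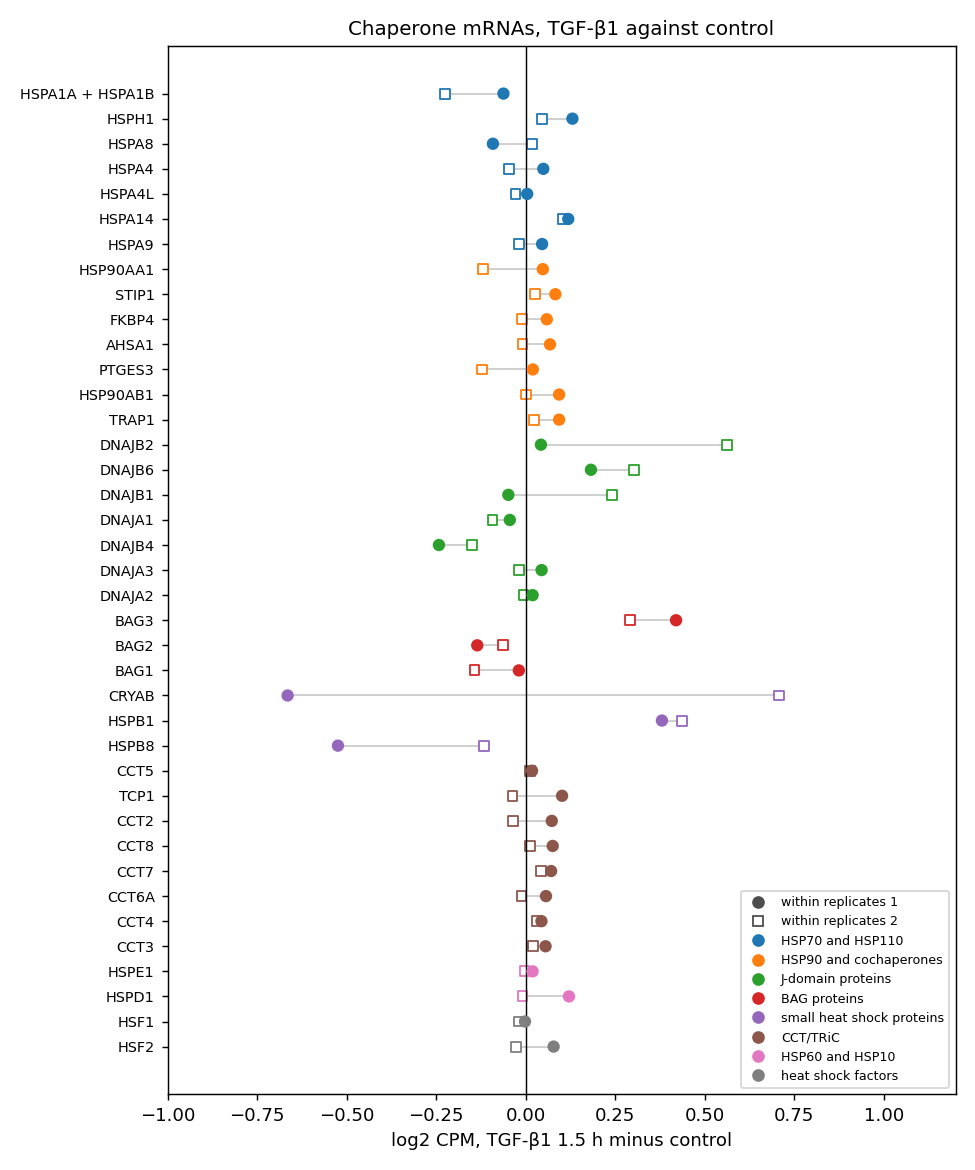
Log2 difference in CPM, TGF-β1 at 1.5 h minus control (horizontal axis), for each member, with filled circles within replicates 1, open squares within replicates 2 and colours for families. Most points lie close to 0, HSPB1 (0.38 and 0.44) and BAG3 (0.42 and 0.29) lie to the right in both, and CRYAB, with few counts, lies on opposite sides.

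The larger differences among the chaperones were between the libraries numbered 2 and those numbered 1. Cytosolic HSP70, HSP110, HSP90, the HSP90 cochaperones and CCT were mostly lower in replicates 2, as was mitochondrial HSP10 (HSPE1), while the mitochondrial HSP70, HSP60 and HSP90 and the heat shock factors did not pass the test. Whether cytosolic and mitochondrial members differed was not tested. Of 39 members, 21 passed edgeR's quasi-likelihood test, against 37.4% of all tested genes. Of these, 2 were higher in replicates 2, against 16.4% of all genes, and 19 were lower, against 21% of all genes. DESeq2's Wald test also called 2 members higher, against 8.22% of all genes, and 19 lower, against 12.7% (20.9% in either direction). Its lower calls hold CCT4, which edgeR did not call, and not the reference row of HSPA1B. At an unadjusted p under 0.05 edgeR had 25 members, against 48.4% of all genes. The 21 calls by edgeR hold HSPB8 (higher) and the reference row of HSPA1B (lower), each kept by the filter through 1 replicate number. Without them 1 member was higher and 18 lower of 37. The median log2 fold change was -0.19 over the members, also without these rows, and 0.01 over all tested genes. Both replicates 2 were below both replicates 1 for 24 members, where 36.6% of all genes were, and above both for 7, where 35.9% of all genes were. With the alternate copies added, the filter kept all 40 members, of which 2 were higher and 20 lower. In bulk RNA, fewer cells with a transcript and less RNA of it per cell cannot be told apart. The labels do not say what the replicate numbers stand for. The summed level of the 14 basal markers was also lower in replicates 2, at 8684 and 7813 TPM in TGFB1 and control replicates 2, against 12717 and 11920 TPM in TGFB1 and control replicates 1, with 1 marker higher, 8 lower and none at 0. The fall was not limited to basal markers. The summed level of the 9 luminal markers was 3226 and 2912 TPM in TGFB1 and control replicates 2, against 4214 and 3939 TPM in TGFB1 and control replicates 1. Most of this sum was KRT7, with a mean of 2968.5 TPM over the 4 libraries. Of the 7 luminal markers tested, 2 were higher, ERBB3 (0.41) among them, and 4 lower, KRT8 (-0.53) among them. The part of these markers and of PHF8 in the chaperone differences was not tested.

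**Figure D3:**
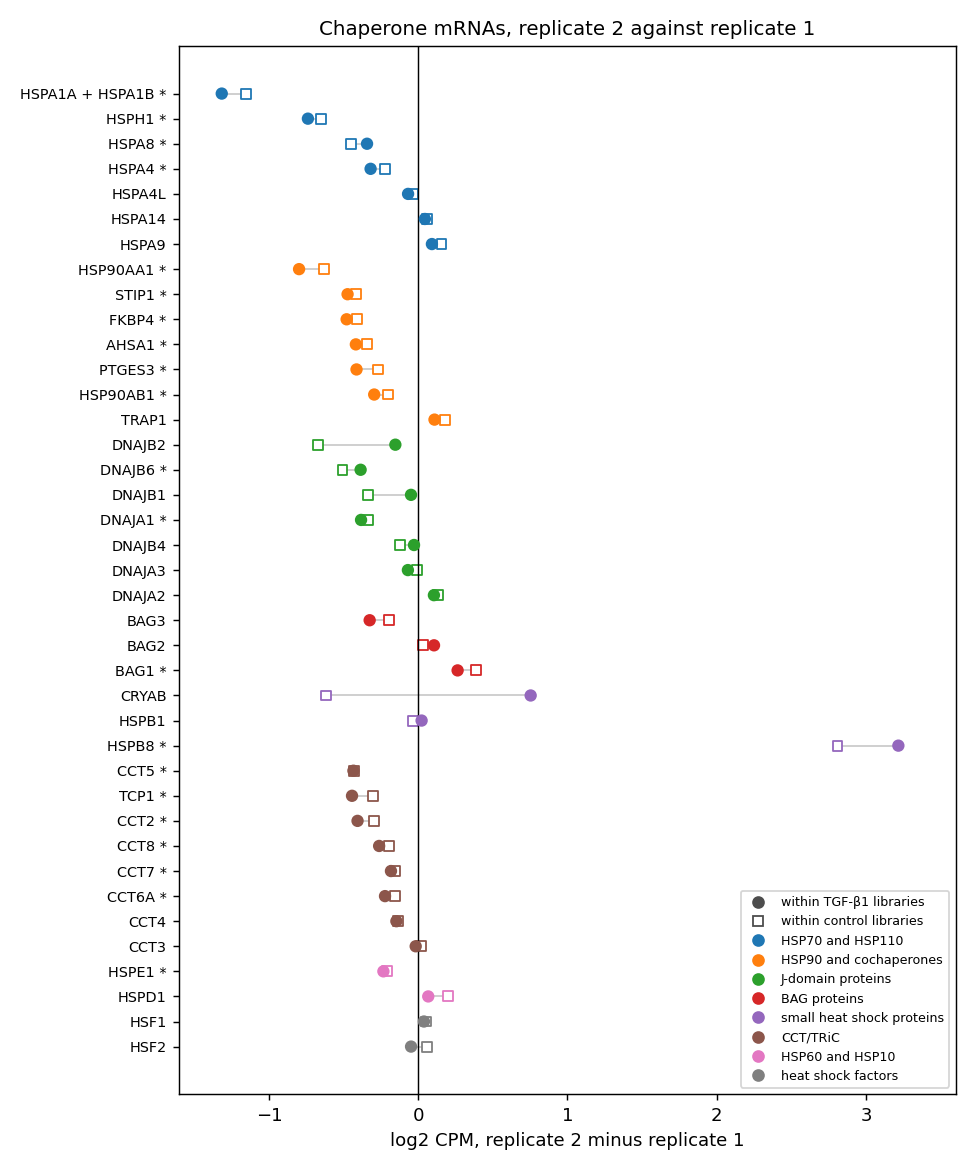
Log2 difference in CPM, replicate 2 minus replicate 1 (horizontal axis), for each member, with filled circles within the TGFB1 libraries, open squares within the control libraries and colours for families, and with an asterisk at members that passed edgeR's test. HSP70, HSP90 and CCT genes lie mostly left of 0 with both symbols close together, the HSPA1 pair lies farthest left among them, and HSPB8 lies farthest right. The asterisk of HSPB8 rests on counts that passed the filter through replicates 2 alone.

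The inducible HSP70 pair was lowest relative to replicates 1. Summed with its copies it was at 235 and 275 CPM in TGFB1 and control replicates 2, against 586 and 612 CPM in TGFB1 and control replicates 1. It was 2.35-fold lower in replicates 2, a log2 fold change of -1.23 ± 0.08 (SE) with an adjusted p of 0.00136 in edgeR's quasi-likelihood test, and between -1.35 and -1.13 without each library in turn. HSPH1 (HSP110), an exchange factor of HSP70, was at 173 and 168 CPM in TGFB1 and control replicates 2, against 289.5 and 264 CPM in TGFB1 and control replicates 1. That is 1.62-fold lower, a log2 fold change of -0.70 ± 0.06 (SE, adjusted p = 0.00187). HSPA8 was at 2694 and 2663 CPM in TGFB1 and control replicates 2, against 3416 and 3639 CPM in TGFB1 and control replicates 1. This constitutive gene was 1.32-fold lower, with a log2 fold change of -0.40 ± 0.05 (SE, adjusted p = 0.00411). HSPA4, another HSP110 relative, was at 482 and 497 CPM in TGFB1 and control replicates 2, against 601 and 581 CPM in TGFB1 and control replicates 1, a log2 fold change of -0.27 ± 0.04 (SE). HSPA9 was at 899 and 910.3 CPM in TGFB1 and control replicates 2, against 843 and 817 CPM in TGFB1 and control replicates 1. This mitochondrial HSP70 did not pass (log2 fold change 0.12, adjusted p = 0.0703), nor did HSPA4L and HSPA14, at -0.05 and 0.05.

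Of HSP90 and its cochaperones, 6 of 7 were lower in replicates 2, against 21% of all tested genes. HSP90AA1, the inducible cytosolic HSP90, was at 465 and 505 CPM in TGFB1 and control replicates 2, against 808 and 782 CPM in TGFB1 and control replicates 1. It was 1.64-fold lower, with a log2 fold change of -0.71 ± 0.06 (SE) and an adjusted p of 0.00169 in edgeR's quasi-likelihood test, the smallest of the members in the fit of the reference rows. HSP90AB1 was at 1497 and 1496 CPM in TGFB1 and control replicates 2, against 1837 and 1722 CPM in TGFB1 and control replicates 1, a log2 fold change of -0.25 ± 0.05 (SE). Its call was lost without TGFB1 replicate 2 (adjusted p = 0.0535) or without control replicate 2 (adjusted p = 0.0557). FKBP4, an immunophilin of steroid receptor complexes, was at 232 and 234 CPM in TGFB1 and control replicates 2, against 324 and 311 CPM in TGFB1 and control replicates 1. STIP1 (HOP), the adaptor between HSP70 and HSP90, was at 195 and 191 CPM in TGFB1 and control replicates 2, against 270.1 and 255 CPM in TGFB1 and control replicates 1. The log2 fold changes were -0.45 for FKBP4 and -0.44 for STIP1, and no library of replicates 2 reached one of replicates 1. AHSA1, which activates the HSP90 ATPase, was at 118 and 119 CPM in TGFB1 and control replicates 2, against 158 and 151 CPM in TGFB1 and control replicates 1. PTGES3 (p23), which stabilises the closed form of HSP90, was at 243 and 265 CPM in TGFB1 and control replicates 2, against 324 and 319.7 CPM in TGFB1 and control replicates 1. TRAP1, the mitochondrial HSP90, was the exception, at 267 and 263 CPM in TGFB1 and control replicates 2, against 248 and 232 CPM in TGFB1 and control replicates 1, and did not pass (log2 fold change 0.14, adjusted p = 0.0721). Where genes needed 50 counts or more in 2 libraries, edgeR called the mitochondrial TRAP1 (log2 fold change 0.17, adjusted p = 0.0385) and HSPA9 (0.15, adjusted p = 0.0362) higher in replicates 2. The J-domain protein DNAJA2 also passed there as higher (0.15, adjusted p = 0.0299), so the calls gained were not limited to mitochondrial members. In other settings HSPA9 did not pass. It was at 0.02 by limma on log2(TPM + 1) (adjusted p = 0.777). By edgeR it was at 0.10 without a filter (adjusted p = 0.115) and at 0.12 with the treatment as a term (adjusted p = 0.0932).

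Of the 8 CCT subunits, 6 were lower in replicates 2, against 21% of all tested genes. CCT5 was at 419.6 and 416 CPM in TGFB1 and control replicates 2, against 567 and 559.8 CPM in TGFB1 and control replicates 1, a log2 fold change of -0.43 ± 0.04 (SE, adjusted p = 0.00221 in edgeR's quasi-likelihood test). TCP1 was at 419.6 and 430.4 CPM in TGFB1 and control replicates 2, against 570.5 and 532 CPM in TGFB1 and control replicates 1. CCT2 was at 308 and 315 CPM in TGFB1 and control replicates 2, against 408 and 388 CPM in TGFB1 and control replicates 1. These subunits, which sit in the same double ring, thus had log2 fold changes between -0.43 and -0.35. CCT8 was at 383 and 379.9 CPM in TGFB1 and control replicates 2, against 459 and 436 CPM in TGFB1 and control replicates 1. CCT6A was at 415 and 419 CPM in TGFB1 and control replicates 2, against 485 and 466 CPM in TGFB1 and control replicates 1. CCT7 was at 394 and 382 CPM in TGFB1 and control replicates 2, against 447 and 426 CPM in TGFB1 and control replicates 1. The log2 fold changes of these 3 were -0.23 (CCT8), -0.19 (CCT6A) and -0.17 (CCT7), and their calls hung on single libraries. CCT7 lost its call whichever library was left out (adjusted p between 0.0567 and 0.159). The calls of CCT8 and CCT6A were lost without TGFB1 replicate 1 (adjusted p of 0.0592 for CCT8 and 0.0883 for CCT6A), TGFB1 replicate 2 (0.0626 for CCT8 and 0.0903 for CCT6A) or control replicate 2 (0.0733 for CCT8 and 0.0855 for CCT6A). CCT4 was at 423 and 413 CPM in TGFB1 and control replicates 2, against 468 and 453 CPM in TGFB1 and control replicates 1. It did not pass edgeR's main test, with a log2 fold change of -0.14 ± 0.04 (SE, adjusted p = 0.0535). Yet CCT4 passed as lower by DESeq2's Wald test (adjusted p = 0.0145), by edgeR without a filter (0.0446) and by limma on log2(TPM + 1) (0.0293). CCT3, the most abundant subunit message, was at 997 and 983 CPM in TGFB1 and control replicates 2, against 1009 and 971 CPM in TGFB1 and control replicates 1, with overlapping groups.

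Among the J-domain proteins, 2 of 7 were lower in replicates 2, against 21% of all tested genes. DNAJA1, a cochaperone of HSPA8, was at 147 and 157 CPM in TGFB1 and control replicates 2, against 192 and 198 CPM in TGFB1 and control replicates 1, a log2 fold change of -0.36 ± 0.05 (SE, adjusted p = 0.00606 in edgeR's quasi-likelihood test). DNAJB6, which suppresses aggregation of polyglutamine proteins, was at 108 and 87.6 CPM in TGFB1 and control replicates 2, against 141 and 125 CPM in TGFB1 and control replicates 1. Its log2 fold change was -0.44 ± 0.12 (SE, adjusted p = 0.0390), and the call was lost without TGFB1 replicate 1 (adjusted p = 0.108) or control replicate 2 (adjusted p = 0.105). DNAJB1 was at 131 and 111 CPM in TGFB1 and control replicates 2, against 136 and 140.2 CPM in TGFB1 and control replicates 1. It did not pass with 4 libraries (adjusted p = 0.149), and passed without TGFB1 replicate 2 (log2 fold change -0.32, adjusted p = 0.0307). DNAJA2, the mitochondrial DNAJA3, DNAJB2 and DNAJB4 did not pass either, at log2 fold changes of 0.12, -0.04, -0.39 and -0.08. DNAJA2 passed as higher where genes needed 50 counts or more in 2 libraries. Without TGFB1 replicate 2, DNAJB2 was at a log2 fold change of -0.71.

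BAG1, an exchange factor of HSP70 that also binds the proteasome, was higher in replicates 2, at 59.7 and 65.9 CPM in TGFB1 and control replicates 2, against 49.7 and 50.3 CPM in TGFB1 and control replicates 1. Its log2 fold change was 0.33 ± 0.06 (SE, adjusted p = 0.0145 in edgeR's quasi-likelihood test), and the call was lost without control replicate 2 (adjusted p = 0.0618). BAG3 (log2 fold change -0.27, adjusted p = 0.258) and BAG2 (0.07) did not pass. HSPB8 (HSP22), the small heat shock partner of BAG3, had 105 and 121 counts in TGFB1 and control replicates 2, against 10 and 16 counts in TGFB1 and control replicates 1. That is 3.04 and 3.30 CPM in TGFB1 and control replicates 2, against 0.256 and 0.403 CPM in TGFB1 and control replicates 1. No test is given for this rare message, the lowest of the members in TPM after the HSPA1 reference rows, because the filter kept it through replicates 2 alone. CRYAB (αB-crystallin) was at 1.48 and 0.874 CPM in TGFB1 and control replicates 2, against 0.844 and 1.38 CPM in TGFB1 and control replicates 1, with overlapping groups. HSPB1 had a log2 fold change of -0.001 between the replicate numbers.

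In mitochondria, HSPE1 and HSPD1 form the folding chamber together and their genes lie next to each other on chromosome 2, with annotated spans that overlap on opposite strands, HSPE1 at chr2:197499994-197503457 and HSPD1 at chr2:197486581-197516737. HSPE1 was at 145.8 and 146.1 CPM in TGFB1 and control replicates 2, against 171 and 169 CPM in TGFB1 and control replicates 1. It was lower in replicates 2, with a log2 fold change of -0.22 ± 0.04 (SE, adjusted p = 0.0112 in edgeR's quasi-likelihood test), a call lost without TGFB1 replicate 2 (adjusted p = 0.0570) or control replicate 2 (adjusted p = 0.0630). HSPD1 was at 1365 and 1373 CPM in TGFB1 and control replicates 2, against 1302 and 1198 CPM in TGFB1 and control replicates 1. It did not pass, with a log2 fold change of 0.13 ± 0.05 (SE, adjusted p = 0.117), so the values of the pair had opposite signs. The sources do not state whether the estimation used the strand, so reads in the overlap are uncertain between the pair.

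HSF1 was at 100.9 and 102 CPM in TGFB1 and control replicates 2, against 98.2 and 98.3 CPM in TGFB1 and control replicates 1. Its log2 fold change was 0.05 ± 0.04 (SE, adjusted p = 0.394 in edgeR's quasi-likelihood test), and its sign turned to -0.10 on the TPM scale. HSF2 was at 18.9 and 19.3 CPM in TGFB1 and control replicates 2, against 19.6 and 18.5 CPM in TGFB1 and control replicates 1, with a log2 fold change of 0.004. Neither factor passed the test, HSF1 with both replicates 2 above both replicates 1 in CPM and HSF2 with overlapping groups. The deposited tables do not measure the proteins or their activity. In all, 12 of the 19 called members other than HSPB8 and the reference row of HSPA1B stayed called without each library in turn.

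**Figure D4:**
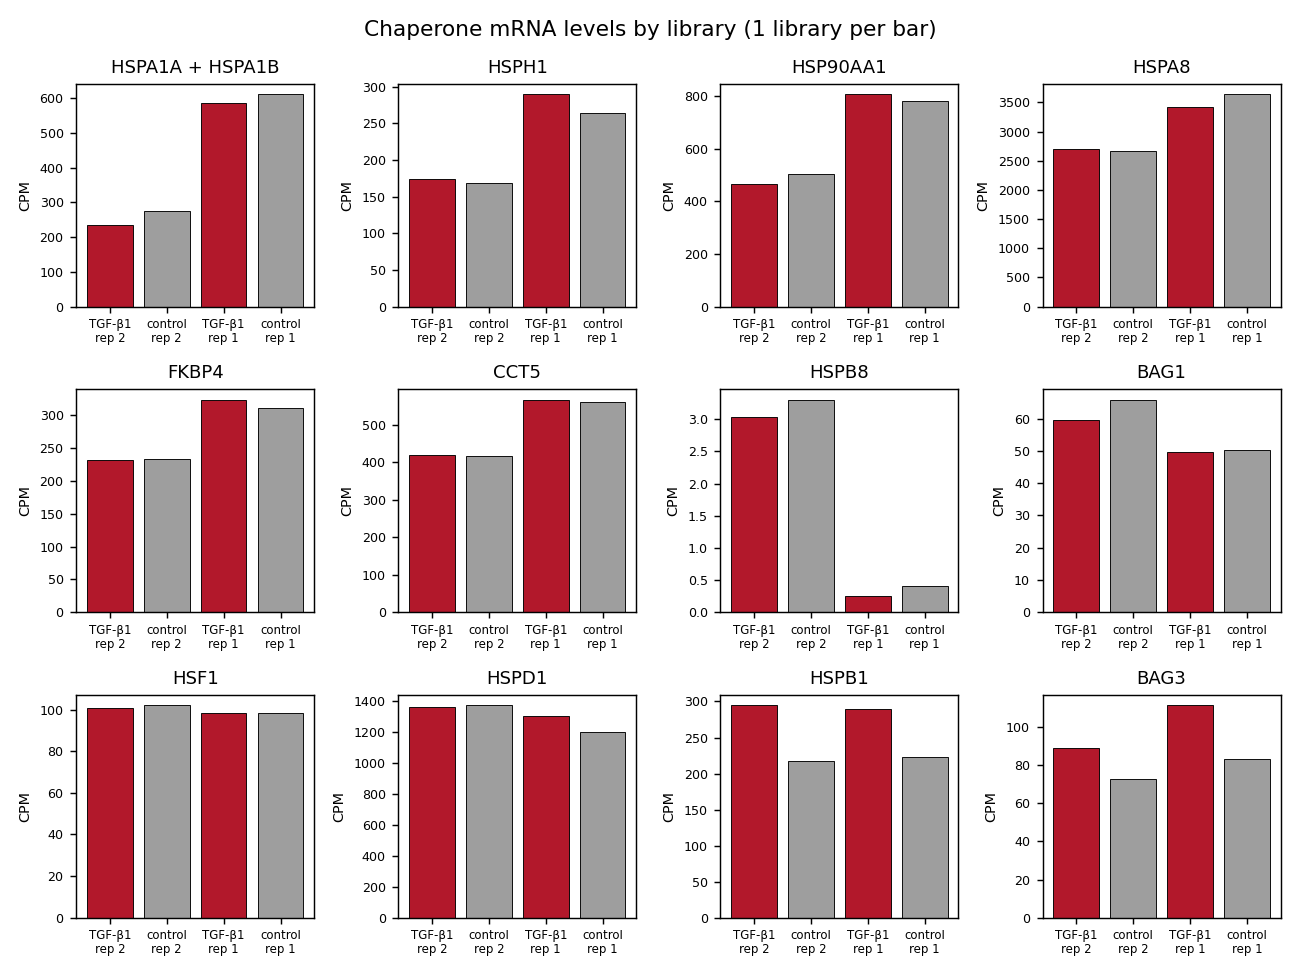
CPM (vertical axis, from 0, with its own scale in each panel) of 12 members or sums in the 4 libraries, 1 library per bar, TGFB1 in red and control in grey, with replicates 2 left of replicates 1. HSPA1A + HSPA1B, HSPH1, HSP90AA1, HSPA8, FKBP4 and CCT5 are lower in both replicates 2, HSPB8 and BAG1 are higher there, and HSPB1 and BAG3 are higher in both TGFB1 libraries.

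Members with and without the heat shock element letters shown above were set side by side in the fit with the copies added. The near-identical HSPA1 pair was counted as 1, and HSPB8 was left out because the filter kept it through replicates 2 alone. Of the 7 others with the letters, 5 were lower in replicates 2, 0 were higher and 2 (HSPB1 and BAG2) did not pass, with a median log2 fold change of -0.37. Of the 26 without them, 12 were lower, 1 (BAG1) was higher and 13 did not pass, with a median of -0.21. Over all tested genes, 22.1% of those with the letters and 22.6% of those without were lower, and 18.2% of those with and 16.6% of those without were higher. The difference between the 2 sets of members was not tested. HSP90AA1 and HSPH1, lower by more than 1.6-fold, held no match in this window, which says only that these letters are not in it.

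Single transcripts of the members, whose levels are the estimation's division of shared reads and were not tested, are given for 6 members as examples. HSP90AB1-203 made up between 98.3% and 98.6% of its gene's TPM in all 4 libraries. HSPA8-201 made up 64.6% and 61.6% in TGFB1 replicates 1 and 2, against 63.8% and 64.9% in control replicates 1 and 2. DNAJB6-204 made up 58.2% and 58.5% in TGFB1 and control replicates 2, against 72.2% and 65.9% in TGFB1 and control replicates 1. The lower DNAJB6 level in replicates 2 was thus accompanied by a lower share of its leading transcript. TRAP1-202 made up 8.27% and 10.3% of TRAP1 in TGFB1 and control replicates 2, against 15.1% and 17.7% in TGFB1 and control replicates 1, a lower share in both. HSF1-204 made up 78.4% and 72.9% of HSF1 in TGFB1 and control replicates 2, against 72.0% and 67.4% in TGFB1 and control replicates 1. HSP90AA1-201, the main coding transcript of its gene, made up 83.3% and 86.5% in TGFB1 and control replicates 2, against 87.8% and 89.6% in TGFB1 and control replicates 1.

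Other genes of protein folding were counted from wider lists, beside 16.4% of all tested genes higher and 21% lower in replicates 2 by edgeR and 48.4% at an unadjusted p under 0.05. Of 35 tested genes listed as cytosolic chaperones and cochaperones outside the members, not all of them proven chaperones, 6 were higher and 15 lower in replicates 2. CHORDC1, an HSP90 cochaperone, was at 16.5 and 15.2 CPM in TGFB1 and control replicates 2, against 38.7 and 38.6 CPM in TGFB1 and control replicates 1 (log2 fold change -1.28). DNAJC5 (-0.64) and HSPB11 (-0.999) were also lower. Prefoldin and the tubulin cofactors work next to CCT. Of 16 genes of these and related proteins, 2 were higher and 5 lower, the latter including TBCE (-0.43), PFDN2 (-0.39) and PDCL3 (-0.50). Of 17 mitochondrial chaperones, import motor subunits and proteases, 5 were higher and 0 lower by edgeR and by DESeq2, with 7 at an unadjusted p under 0.05, and HSCB (0.47), DNAJC15 (0.44) and SPG7 (0.40) had the smallest p. Of 11 heat shock factors and stress genes linked to HSF1, 2 were higher by edgeR, among them HSF4 at 0.85, on 1.18 to 2.35 CPM. In that list 1 was lower, HSPA6 at -1.37, on under 2 CPM in every library, which also stands in the cytosolic list. DESeq2 called 1 of these 11 higher and 0 lower, against 8.22% and 12.7% of all genes. The medians were -0.16 for the cytosolic list, -0.12 for prefoldin and cofactors, 0.09 for the mitochondrial list and 0.04 for the stress list, against 0.01 over all tested genes.

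Against control, the TGFB1 libraries had 0 calls by edgeR's quasi-likelihood test in these 4 lists. At an unadjusted p under 0.05 it had 1 of 35 cytosolic genes and 2 of 11 stress genes, against 1.73% of all tested genes. DESeq2 called the same numbers, against 0.388% of all genes. The cytosolic gene was DNAJB5, a J-domain protein, at 24.2 and 20.2 CPM in TGFB1 replicates 1 and 2, against 9.06 and 5.27 CPM in control replicates 1 and 2 (log2 fold change 1.63 ± 0.31, SE). The stress genes were HMOX1, heme oxygenase 1, at 7.93 and 16.7 CPM in TGFB1 replicates 1 and 2, against 2.34 and 2.35 CPM in control replicates 1 and 2, and IER5L, at 70.5 and 98.4 CPM in TGFB1 replicates 1 and 2, against 14.4 and 27.2 CPM in control replicates 1 and 2. In each of these 3 genes both TGFB1 libraries stood above both control libraries, as in 7.87% of all tested genes. They were named for the smallest p in their lists, so this separation is not further evidence.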

How the data were processed

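RNA of MCF10A cells (2 libraries after TGF-β1, 2 controls) was sequenced as paired ends. The labels name a ribosomal-depletion total RNA kit and also polyA RNA. Per the submitters' processing notes, the authors used kallisto and GRCh38, and neither a kallisto version nor a transcript release is given in the sources used here. In each deposited table stand estimated counts and TPM per transcript, per the file headers. Of 173259 transcripts, 159239 (91.91%) matched GENCODE release 29 by identifier and belong to 34500 genes, and the rest held 2.24% to 2.38% of counts. A second, differently named gene that older releases list as HSPA14 was not used. Estimated counts were summed per gene, rounded, scaled by TMM, filtered by filterByExpr and tested without covariates with edgeR 4.0.16 (R 4.3.3). Standard errors are the log2 fold change divided by the root of F, an approximation. Within-number differences are log2 CPM with a prior count of 3. Alternatives were DESeq2 1.42.0, limma 3.58.1 on log2(TPM + 1), a pseudocount of 0.1, RLE scaling, other filters (none, or 50 counts in 2 libraries), a replicate block or treatment term, each library left out, a threshold of 0.01 and alternate-assembly copies (18 transcripts of members) with or without pseudogenes. Fits of the summed HSPA1 pair under other tests, the block and each library left out were added after seeing the data. Members and gene lists were chosen with earlier results of these data known. Per-library values were given for members called in either comparison, the 10 highest in TPM, the 8 with the smallest p in each comparison and a fixed set of key chaperones, and up to 3 genes with the smallest p were taken from each wider list. The result of 1 gene of these lists is not reported here. Promoters are RefSeq's on GRCh38.p14. The edgeR steps were tested on simulated data.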

Additional observations from a re-analysis of the deposited data

How the results depend on the processing

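With 2 libraries a group, small differences were at the limit of these tests, and the estimated counts of HSPB8 (10 to 121) and CRYAB (32 to 55) were the shallowest among tested members apart from the reference row of HSPA1B. Genes called after TGF-β1 numbered 90 by DESeq2, 15 without a filter and 8 to 25 without each library, against 0 in the main test. Same-numbered libraries deviated together (r = 0.678 across 14774 genes, 2 pairs). The labels tie a number to no shared culture or day, so what the libraries of 1 number have in common is not known. With the replicate block, 335 genes were called after TGF-β1, among them 2 members, HSPB1 (log2 fold change 0.41, adjusted p = 0.00656, edgeR) and BAG3 (0.36, adjusted p = 0.0222), and without each library no member was. For replicates 2 against replicates 1, limma on log2(TPM + 1) called 3584 genes in all, 1162 higher and 2422 lower, against 5524, 2422 higher and 3102 lower, in the main test. A threshold of 0.01 left 2599 genes and 13 members, and leaving out each library left 3011 to 4041 genes and 14 to 20 members. These member counts hold HSPB8, and those with a library left out also hold the reference row of HSPA1B. Without TGFB1 replicate 2 they hold the reference row of HSPA1A too, at 7.66 on 24 counts in control replicate 2, opposite in sign to the summed pair. Requiring 50 counts or more in 2 libraries gave 5 members called higher and 17 lower. That gained HSPA9, TRAP1 and DNAJA2 (0.15, adjusted p = 0.0299, edgeR), lost CCT7 (adjusted p = 0.0620) and left out the reference row of HSPA1B. That filter gave 5397 called genes in all, 2556 higher and 2841 lower. With the treatment as a term 24 members passed, 3 higher and 21 lower, gaining TRAP1 (0.14, adjusted p = 0.0453, edgeR), DNAJB2 (-0.41, adjusted p = 0.0374) and BAG3 (-0.26, adjusted p = 0.00791). Calls over all genes also rose with this term, to 6635, 2935 higher and 3700 lower, against 5524 in the main test. Signs turned only for members that did not pass. HSPB1 was at 0.00303 with RLE scaling and 0.0283 with at least 50 counts, and HSF1 was at -0.10 on the TPM scale, -0.0952 with a pseudocount of 1 (also in limma) and -0.0964 with 0.1. HSF2 was at -0.00831 in DESeq2, -0.0155 without a filter, -0.0420 in limma and with a pseudocount of 1, and -0.0454 with 0.1. Leaving out each library gave log2 fold changes of -0.0306 to 0.65 for DNAJB2, -0.0712 to 0.27 for DNAJB1 and -0.92 to 0.58 for the HSPA1 pair after TGF-β1. For replicates 2 against replicates 1 it gave -0.25 to 0.19 for HSPB1, -0.36 to 0.47 for CRYAB and -0.0419 to 0.0354 for HSF2. The cause of these shifts was not tested. Scalings moved the median of all genes by under 0.1 on the log2 scale. Adding alternate copies, with or without pseudogenes, gave 22 called members and 5521 called genes in all.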

Other observations

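The chaperones of the endoplasmic reticulum, which fold secreted and membrane proteins, were counted as a separate list. Of 16 tested, 0 were higher and 10 were lower in replicates 2 by edgeR's quasi-likelihood test with Benjamini-Hochberg adjustment, and DESeq2 gave the same numbers, with a median log2 fold change of -0.42 against 0.01 over all tested genes. Of all tested genes 16.4% were higher and 21% lower by edgeR, and 8.22% were higher and 12.7% lower by DESeq2. Calreticulin (CALR), a lectin chaperone, was at 379 and 378 CPM in TGFB1 and control replicates 2, against 645 and 692 CPM in TGFB1 and control replicates 1. HYOU1, the reticulum's HSP110 relative, had a log2 fold change of -0.64 and PDIA4, a disulfide isomerase, one of -0.50.

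Of 31 tested subunits of the 26S proteasome, which degrades proteins that chaperones fail to fold, 0 were higher and 17 lower in replicates 2 by edgeR, and 0 higher and 18 lower by DESeq2. Over all tested genes 16.4% were higher and 21% lower by edgeR, and 8.22% higher and 12.7% lower by DESeq2. The median log2 fold change was -0.17 over the subunits and 0.01 over all tested genes. PSMD3, PSMD1 and PSMD2, subunits of the regulatory particle, had log2 fold changes of -0.90, -0.81 and -0.69. Against control, the TGFB1 libraries had 0 calls in either list by either test and 0 genes at an unadjusted p under 0.05.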
